A study of Mus musculus with 111 samples.

Results

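Collagen and laminin chains were described across sorted cells of the mouse striatum in 2 models of Huntington's disease. The members were all genes with a probe set of 1 symbol whose symbol is Col, a number, the letter a and a number, or Lama, Lamb or Lamc and a number. This gave 52 genes of 18194 named by the arrays, 42 of them collagen chains and 10 laminin chains, with 101 probe sets. For the 33 members with several probe sets the brightest one, by its mean across the 111 arrays, was used. Cells were sorted into an astrocyte fraction (GLT1+/CD11b-), a microglia fraction (GLT1-/CD11b+) and a negative fraction (GLT1-/CD11b-), from R6/2 mice (labelled R62) at 6 and 12 weeks, from zQ175 mice (labelled Q175) at 6 and 12 months, and from wild-type (WT) mice of each age. In R6/2 mice a transgene encodes exon 1 of human huntingtin with an expanded repeat, and zQ175 mice carry an expanded repeat knocked into their own huntingtin gene. In each fraction there were 5 WT and 5 R6/2 samples at 6 weeks, 5 WT and 6 R6/2 samples at 12 weeks, and 4 samples of each zQ175 and WT group. A sample was a pool of the striata of a litter's mice of 1 genotype, and the labels name no separate animals, sexes or strains, so p-values measure the spread between pools.

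Collagens are built from 3 chains wound into a triple helix. Types I, III and V form fibrils and are made mainly by fibroblasts and mural cells, whereas type IV forms the network of basement membranes. Laminins are trimers of an alpha, a beta and a gamma chain that polymerise beside it. In the brain these sheets surround endothelial cells and pericytes, and the astrocyte endfeet rest on them. Types II, IX and XI are best known from cartilage, where type IX chains coat type II and XI fibrils, and type XVI is a related chain that binds to fibrils.

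Start regions are shown for a pair of chains whose levels moved together and for 3 chains raised in the negative fraction. Col4a1 and Col4a2, which make the common type IV trimer, start head to head on opposite strands. With 1 annotated start taken per gene, their first bases overlap by 22 bases, printed first. The annotated Col4a1 gene reaches base 11312889, so other starts would give a longer overlap. Then follow the 250 bases upstream of the 2 annotated starts of Col9a1 and of the starts of Col9a2 and Col16a1, chains that were higher in the negative fraction of both models (Col16a1 was lower in R6/2 astrocytes). All are from RefSeq for the assembly GRCm38.p6, in the direction of the strand named. Capitals mark the GC box GGGCGG on either strand.
Col4a1 and Col4a2 shared start, chr8:11312805-11312826, plus strand: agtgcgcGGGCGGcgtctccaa
Col9a1, chr1:24177360-24177609, plus strand: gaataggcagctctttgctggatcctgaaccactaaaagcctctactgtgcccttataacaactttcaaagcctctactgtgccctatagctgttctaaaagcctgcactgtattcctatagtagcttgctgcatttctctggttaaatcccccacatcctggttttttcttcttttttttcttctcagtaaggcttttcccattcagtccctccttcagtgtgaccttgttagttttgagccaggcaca
Col9a1, chr1:24194953-24195202, plus strand: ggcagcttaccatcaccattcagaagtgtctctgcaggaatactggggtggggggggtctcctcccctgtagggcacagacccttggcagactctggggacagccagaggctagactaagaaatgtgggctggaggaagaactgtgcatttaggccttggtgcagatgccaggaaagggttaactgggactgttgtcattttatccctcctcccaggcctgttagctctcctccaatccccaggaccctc
Col9a2, chr4:121039316-121039565, plus strand: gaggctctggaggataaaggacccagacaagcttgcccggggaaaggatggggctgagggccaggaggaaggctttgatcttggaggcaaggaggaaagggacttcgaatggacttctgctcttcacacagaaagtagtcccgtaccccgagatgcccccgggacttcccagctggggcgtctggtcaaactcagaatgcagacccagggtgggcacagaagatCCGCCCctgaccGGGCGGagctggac
Col16a1, chr4:130047590-130047839, plus strand: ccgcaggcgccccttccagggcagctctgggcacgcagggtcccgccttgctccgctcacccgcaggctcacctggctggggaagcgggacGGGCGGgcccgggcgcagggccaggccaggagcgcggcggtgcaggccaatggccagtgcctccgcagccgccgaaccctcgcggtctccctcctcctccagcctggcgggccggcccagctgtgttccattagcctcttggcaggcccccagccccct
Of the 52 members, 38 had a window in the RefSeq table, in 42 windows of 250 bases. The letters GGGCGG, searched on both strands, were in 23 of these 42 windows and in 32.7% of all 32851 windows. The Col9a1 windows held none, the Col9a2 window held 2 and the Col16a1 window held 1. The letters ACAATG, the core of the motif that SOX factors bind, were in 0 of the 42 member windows and in 10.7% of all windows, and TATAAA was in 5 and in 12.4%. These are matches of letters in short windows.

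The fractions carried the markers of their labels, with exceptions. Slc1a2, the gene of GLT1, had group means of 13.28 to 13.60 (log2 expression) in the astrocyte fraction, and Cx3cr1, a microglial receptor, had means of 12.58 to 13.12 in the microglia fraction. The oligodendrocyte marker Mog was also high in the astrocyte fraction, at 12.20 to 12.79. The negative fraction held endothelial (Cldn5, 11.93 to 13.31), mural (Pdgfrb, 11.01 to 12.51), fibroblast (Dcn, 9.32 to 10.57), oligodendrocyte (Mog, 11.70 to 12.66) and astrocyte (Slc1a2, 9.54 to 11.17) transcripts together. Pdgfrb was at 10.31 to 11.10 in the astrocyte fraction. The mean of the pericyte and smooth muscle markers was further apart, at 7.07 to 8.37 there and 10.09 to 11.42 in the negative fraction. In such mixed samples fewer cells of a type and less RNA per cell cannot be told apart. Pearson's r between samples of a group was 0.971 to 0.996 over all genes. In the negative fraction 1 R6/2 pool at 6 weeks, number 7, was far below its group for Col4a1 and Col4a2.

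In WT mice most of the chains tested were highest in the negative fraction. A gene was tested with limma where its mean reached the 40th percentile of probe set means in a fit, and it was called at an adjusted p below 0.05. Over the WT samples of all ages 30 members were tested, and 17 of them were above both other fractions in the negative fraction, 7 in the astrocyte fraction and 3 in the microglia fraction. How many of all genes were above both other fractions was not counted, so this split is not read as particular to the chains. The filter took the mean over all fractions. A chain that passed it only through 1 high fraction was bound to differ. Of the 30, 28 were called between the astrocyte and negative fractions, 9 higher in astrocytes and 19 lower, where 75.9% of all genes tested were called (38.7% higher and 37.2% lower). Between the microglia and negative fractions 29 were called, 4 higher and 25 lower, where 83.7% of all genes were called (40.2% higher and 43.5% lower), and between the astrocyte and microglia fractions 27 were called, 24 higher and 3 lower, where 85.6% were called (44.9% higher and 40.7% lower). Most genes of the arrays were called in these comparisons, so the sizes are given beside the counts. The members' median was -2.95 for microglia minus negative, against -0.03 for all genes, and -1.19 for astrocyte minus negative, against 0.03.

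**Figure D1:**
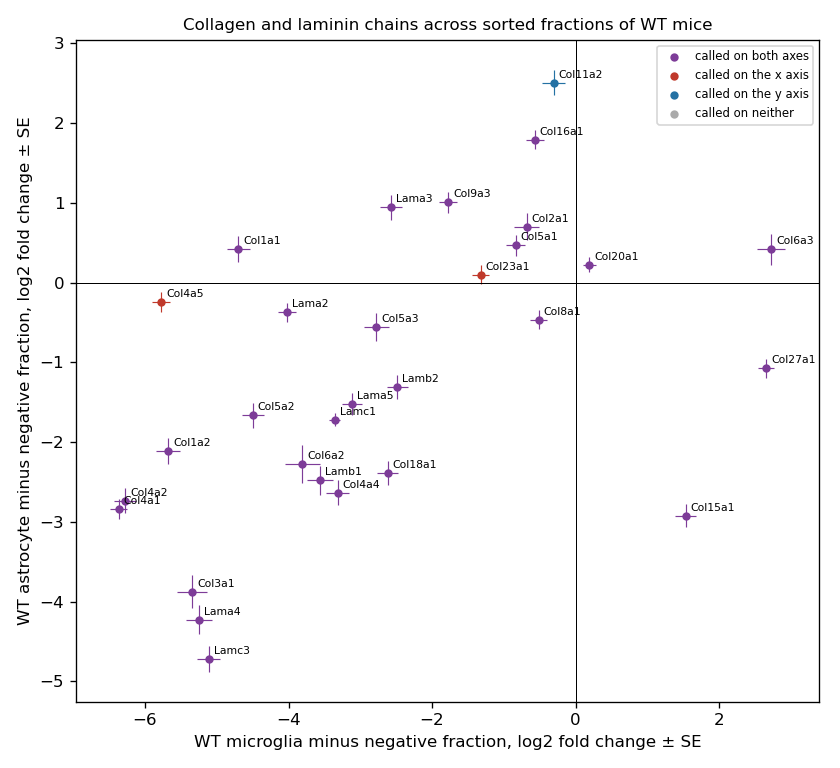
Log2 fold change ± SE of 30 collagen and laminin genes in WT mice, microglia minus negative fraction (x axis) and astrocyte minus negative fraction (y axis), 18 samples per fraction. Col4a1, Lama4 and Lamc3 sit at the lower left, the microglia-high Col15a1, Col27a1 and Col6a3 at the right, and Col11a2 and Col16a1 at the top.

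The basement membrane network set the negative fraction apart. The ranges of Col4a1 did not overlap between fractions. Col4a1 was at 12.25 ± 0.35 (SD, n = 18) in the negative fraction, 9.41 ± 0.47 in the astrocyte fraction and 5.88 ± 0.56 in the microglia fraction (ranges 11.71 to 12.75, 8.66 to 10.42 and 4.85 to 7.32). Its partner Col4a2 followed with 11.81, 9.08 and 5.53. Lama4, the laminin alpha chain of endothelium, was at 10.70 ± 0.73, 6.47 ± 0.63 and 5.46 ± 0.56. Lamc3 was at 8.97 ± 0.96, 4.25 ± 0.44 and 3.86 ± 0.33. It passed the filter through the negative fraction, so no test is given for it.
Col4a5 was different from Col4a1. It was at 9.11 ± 0.47 in the negative fraction and 8.87 ± 0.30 in the astrocyte fraction, a difference that was not called, against 3.34 ± 0.44 in microglia. Lama2, the alpha chain of the laminin that astrocytes contribute, showed a small gap as well, 10.43 ± 0.47 against 10.05 ± 0.19 (log2 fold change -0.37 ± 0.12 SE, adjusted p = 0.00587).

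Some fibril-related chains were highest in the astrocyte fraction. Col11a2 was at 7.93 ± 0.75 there, 5.43 ± 0.67 in the negative fraction and 5.12 ± 0.40 in microglia, and the ranges of the astrocyte (6.86 to 9.17) and negative (4.49 to 6.65) samples did not overlap. Col16a1 was at 8.0 ± 0.70, 6.21 ± 0.49 and 5.64 ± 0.27, and Col9a3 at 8.75 ± 0.47, 7.74 ± 0.55 and 5.97 ± 0.31. Col1a1, the main chain of fibrillar type I collagen, was at 10.53 ± 0.28 in the astrocyte fraction and 10.11 ± 0.44 in the negative fraction, whereas Col1a2, the other chain of that trimer, was 2.11 lower in the astrocyte fraction.

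Microglia carried a short list of their own. Col27a1, a fibril-forming chain, was at 11.37 ± 0.40 in microglia, 8.72 ± 0.70 in the negative fraction and 7.64 ± 0.70 in the astrocyte fraction. Col15a1, a chain that bridges basement membrane and fibrils, was at 9.82 ± 0.31, 8.29 ± 0.69 and 5.37 ± 0.61, and Col6a3 at 8.63 ± 0.78, 5.90 ± 0.63 and 6.32 ± 0.41. Col25a1, a transmembrane collagen, was at 7.24 ± 0.40 in microglia and 4.85 ± 0.92 in the negative fraction, and was below the filter on dim genes in the WT fit.

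At 12 weeks, the R6/2 and WT negative fractions differed in many members: chains of basement membranes and fibrils fell and chains of types II, IX, XI, XVI and XXVII rose. Of 39 members tested, 26 were called, 6 higher and 20 lower, against 26.2% of all genes tested (15.5% higher and 10.7% lower). The members' median was -0.77, against 0.02 for all genes. By role, all 9 laminin chains tested fell, as did 3 of 6 type IV chains, 5 of 9 fibril-forming chains and 1 of 3 type VI chains. 3 of 9 fibril-forming and 3 of 5 fibril-associated chains rose. Other chains were not called, among them Col18a1 (0.16 ± 0.29 SE, adjusted p = 0.732), whose sign changed when single samples were left out.

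Col4a1 in the negative fraction was at 12.62, 12.73, 12.75, 12.64 and 12.70 in the WT pools at 12 weeks and at 11.85, 11.48, 11.54, 11.25, 12.42 and 12.30 in the R6/2 pools. All 6 R6/2 values were below all 5 WT values, and the fold change was -0.88 ± 0.21 (SE, adjusted p = 0.00382). Col4a2 moved with it, from 12.43 ± 0.09 (SD, n = 5) to 11.48 ± 0.47 (SD, n = 6), again with no overlap (-0.95 ± 0.24 SE, adjusted p = 0.00564). Over the 37 pools of the negative fraction, the deviations of Col4a1 and Col4a2 from their group means had Pearson's r of 0.95 and Spearman's rho of 0.94 (permutation p = 0.0001 for each, the smallest value written here, adjusted p = 0.0003 and 0.000315 over 9 relations, and r = 0.93 without the 2 most distant pools). The Col4a5 and Col4a6 pair, also head to head with the starts taken here 1343 bases apart, gave r = 0.08 and rho = 0.06 (permutation p = 0.744 and 0.761). In Col6a1 and Col6a2, which join another alpha chain in type VI collagen, r was 0.69 and rho 0.67 (permutation p = 0.0001 and 0.00014, adjusted p = 0.0003 and 0.000315, r = 0.64 without the 2 most distant pools). The type IX chains were less closely related. Col9a1 and Col9a3 gave r = 0.30 and rho = 0.32 (permutation p = 0.137 and 0.0996), and Col9a2 and Col9a3 gave r = 0.42 and rho = 0.28 (permutation p = 0.0201 and 0.101, adjusted p = 0.0362 and 0.152, r = 0.28 without the 2 most distant pools).

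Lamb1, a beta chain of vascular laminins, was at 9.82, 10.17, 10.19, 10.23 and 10.27 in WT and at 8.15, 8.03, 8.12, 7.79, 9.20 and 10.23 in R6/2. 5 R6/2 pools were below every WT pool and 1 overlapped, with a fold change of -1.55 ± 0.30 (SE, adjusted p = 0.000683). Lama4 was at 11.62 ± 0.17 in WT and 10.58 ± 0.53 in R6/2 with no overlap (-1.04 ± 0.25 SE, adjusted p = 0.00467), and Lamc1, the gamma chain of most laminins, differed less, at 11.66 ± 0.26 and 11.17 ± 0.28 (-0.49 ± 0.13 SE, adjusted p = 0.0103) with overlap. Lama2, Lama5 and Lamb2 changed by -0.79, -0.81 and -0.77, and Lama5 and Lamb2 changed sign with the vascular or astrocyte marker mean as covariate. The Lama5 call was lost without R6/2 pool 13, 15 or 17 or WT pool 14, 16, 18 or 20, and the Lamb2 call without R6/2 pool 15 or 17 or WT pool 16.

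Of the fibrillar chains that fell, Col1a1 had the smallest adjusted p. Its negative fraction values were 10.45, 10.06, 10.58, 10.68 and 10.15 in WT and 8.69, 8.72, 8.91, 9.35, 9.14 and 8.72 in R6/2, with no overlap and a fold change of -1.46 ± 0.16 (SE, adjusted p = 1.28e-06). Col1a2 went from 10.74 ± 0.14 to 9.65 ± 0.45 and Col3a1, of fibrillar type III, from 10.63 ± 0.37 to 9.30 ± 0.69 (-1.33 ± 0.28 SE, adjusted p = 0.0014). Col5a2, a type V chain, changed by -1.48 ± 0.38 (SE, adjusted p = 0.0064) and Col6a2 by -0.93 (adjusted p = 0.0125). Col15a1 was the most lowered member, at 8.39, 8.97, 8.80, 9.13 and 9.63 in WT and 6.38, 6.75, 6.89, 6.77, 7.76 and 7.73 in R6/2, without overlap (-1.94 ± 0.25 SE, adjusted p = 7.38e-06).

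**Figure D2:**
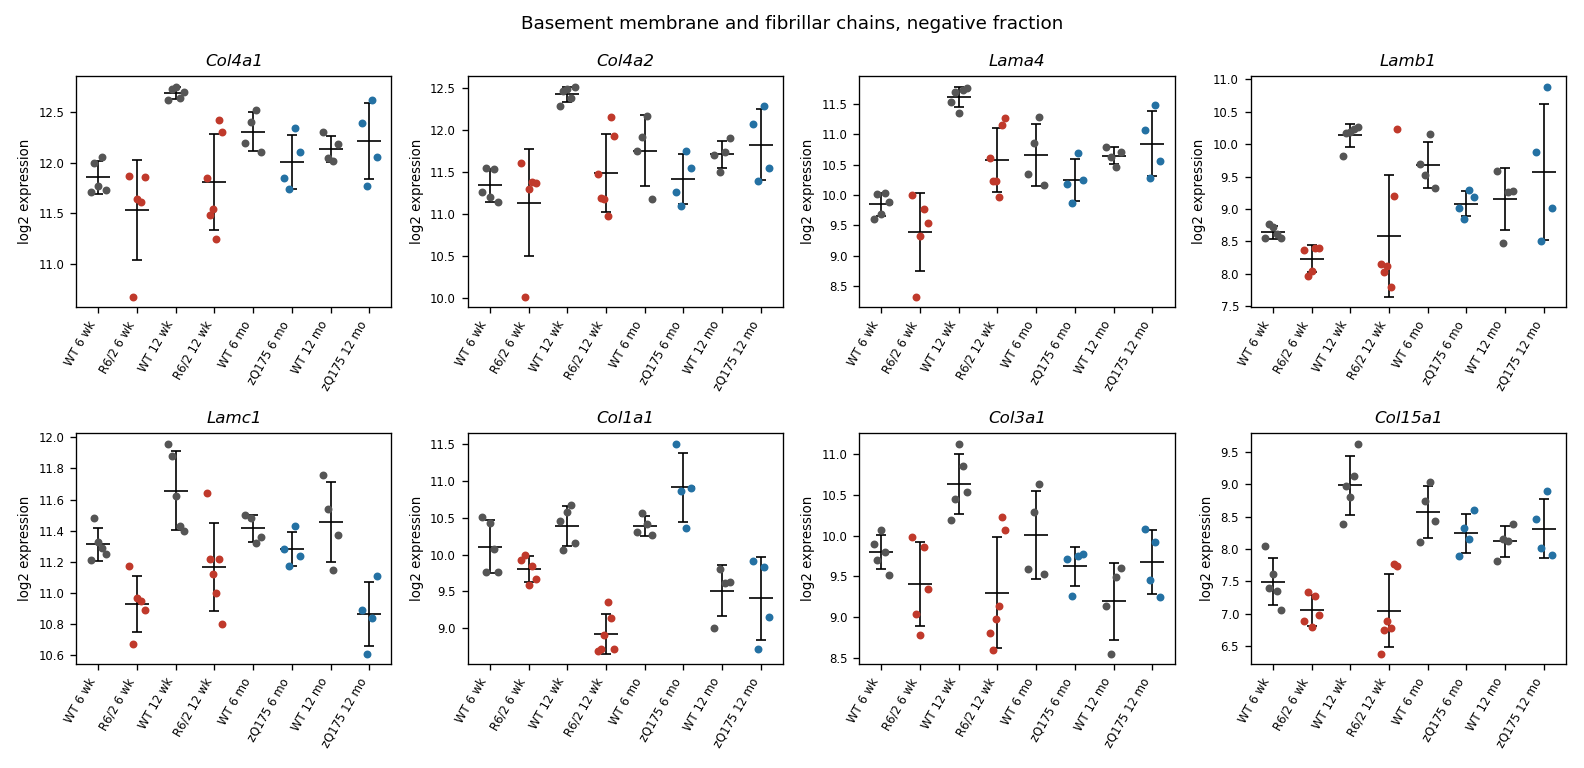
Log2 expression of 8 chains in each pool of the negative fraction (points), by genotype and age, with the mean and SD (bars) and separate y axes that do not start at 0. Col4a1, Col1a1 and Col15a1 have no overlap between WT and R6/2 at 12 weeks, while in Lamb1 1 R6/2 pool reaches the WT pools.

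Cell type markers moved with these genes. At 12 weeks 10 of 11 pericyte and smooth muscle markers and 8 of 11 fibroblast markers were lower in R6/2 than in WT negative fractions and 1 fibroblast marker was higher, 1 of 11 endothelial markers was lower, and 9 of 10 astrocyte markers were higher. Both border macrophage and blood markers tested were lower, and 0 of 8 oligodendrocyte markers were called. The pericyte and smooth muscle mean was 11.32 to 11.56 in WT and 10.14 to 11.07 in R6/2, the endothelial mean 11.65 to 12.04 and 10.90 to 11.73, the fibroblast mean 8.54 to 9.25 and 7.87 to 8.71, and the astrocyte mean 8.33 to 9.11 and 9.95 to 11.20. With the mean of the endothelial, mural and fibroblast markers as a covariate, 9 members were called, 6 higher and 3 lower. In fits with a covariate the share of all genes called was not counted. Col1a1 (-1.58, adjusted p = 0.000253) and Col15a1 (-1.70, adjusted p = 0.00422) stayed lower, while Col4a1 was at -0.02 (adjusted p = 0.963) and Col4a2 at 0.09 (adjusted p = 0.707). With the astrocyte marker mean as covariate 2 members were called, Col1a1 (-1.87, adjusted p = 0.0117) and Col15a1 (-2.31, adjusted p = 0.046), both lower. At 12 weeks the astrocyte mean did not overlap between the genotypes. Nor did the mean of endothelial, mural and fibroblast markers (lowest WT pool 10.54, highest R6/2 pool 10.40). Fits with these means cannot separate them well from genotype, and a lost call is not read as no effect. Deviations of Col4a1 followed the vascular marker mean over the 37 pools with r = 0.88 and rho = 0.86 (permutation p = 0.0001 for each, adjusted p = 0.0003 and 0.000315, r = 0.81 without the 2 most distant pools), those of Lamc1 with r = 0.27 and rho = 0.25 (permutation p = 0.144 and 0.161).

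WT mice changed in the opposite direction between 6 and 12 weeks, and that comparison uses the same WT pools at 12 weeks. In WT negative fractions Lama4 averaged 11.62 at 12 weeks, 10.66 at 6 months and 10.65 at 12 months. Lama4 averaged 10.58 in R6/2 at 12 weeks. Col4a1 in WT was likewise highest at 12 weeks (12.69, against 12.3 and 12.14), but Col1a1 was not (10.38, against 10.39 at 6 months). WT groups of different models were not compared by test. In the negative fraction 27 of 39 members were called, 24 higher and 3 lower at 12 weeks, against 51% of all genes tested (28% higher and 23% lower), with a median of 0.84 against 0.03. Col4a1 rose from 11.85 ± 0.16 to 12.69 ± 0.05 (0.83 ± 0.22 SE, adjusted p = 0.00364), Lama4 from 9.85 ± 0.19 to 11.62 ± 0.17 (1.77 ± 0.27 SE, adjusted p = 3.49e-05) and Lamb1 from 8.64 ± 0.10 to 10.13 ± 0.18 (1.5 ± 0.31 SE, adjusted p = 0.000665). The largest rises were in Lamc3 (2.30), Lama1 (1.79), Lama4, Col4a6 (1.65) and Lamb2 (1.63). Col9a1 (-1.28), Col11a2 (-0.69) and Col9a3 (-0.59) fell, the last not called without WT pool 4 or 14. In R6/2 pools the mean of Col4a1 was 11.53 ± 0.49 at 6 weeks and 11.81 ± 0.47 at 12 weeks, and that of Lamb1 8.23 ± 0.21 and 8.59 ± 0.94. Here too markers moved: 8 of 11 pericyte and smooth muscle, 5 of 11 endothelial and 9 of 11 fibroblast markers were higher and 7 of 10 astrocyte markers lower at 12 weeks. Of the other lists, 5 of 8 oligodendrocyte markers were lower and both border macrophage and blood markers tested were higher. The count of members called was 2 with the vascular marker mean as covariate and 6 with the astrocyte marker mean. Neither mean overlapped between the ages, so the lost calls are not read as no change.
Between 6 and 12 months 0 members were called in WT mice in the negative (0.0634% of all genes called, 7 members at an unadjusted p below 0.05), astrocyte (3.99%, 1 member) and microglia (7.79%, 1 member) fractions with limma.
In the other 2 fractions fewer members were tested and called in WT mice from 6 to 12 weeks, and a smaller share of all genes was called. In the astrocyte fraction 8 of 31 were called against 28.2% of all genes (17.8% higher and 10.5% lower), with Col2a1 (1.21 ± 0.21 SE, adjusted p = 0.000601) the largest of 7 rises and Col4a5 (-0.53, adjusted p = 0.00255) the only fall. This count was 3 to 5 without WT pool 1, 3, 4, 5, 14, 16, 18 or 20 or R6/2 pool 15, each left out alone. In microglia 7 of 16 were called against 30.1% of all genes (20.1% higher and 9.98% lower): Col6a3 (0.70), Lamb2 (0.66), Col20a1 (0.59) and Col15a1 (0.40) rose, and Lama2 (-0.54), Col8a1 (-0.42) and Lamc1 (-0.32) fell. It was 4 without WT pool 2, 4, 18 or 20.

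The chains that rose in R6/2 negative fractions at 12 weeks were mostly those known from cartilage. Col9a1 was at 5.93, 5.34, 4.54, 5.37 and 3.98 in WT and 7.42, 8.10, 8.36, 8.70, 7.98 and 8.79 in R6/2, with no overlap (3.20 ± 0.29 SE, adjusted p = 1.04e-07). Col2a1, the chain of type II collagen, was at 5.56, 5.13, 6.24, 6.17 and 5.67 in WT and 7.59, 7.74, 8.31, 8.26, 8.20 and 7.84 in R6/2, again without overlap (2.24 ± 0.22 SE, adjusted p = 3.76e-07). Col9a3 was at 7.75 ± 0.42 and 9.89 ± 0.39 (2.13 ± 0.20 SE, adjusted p = 1.53e-07), with the highest WT pool at 8.19 and the lowest R6/2 pool at 9.44. Col11a2 rose by 1.60 ± 0.19 (SE, adjusted p = 3.66e-06), Col16a1 by 1.60 ± 0.22 (adjusted p = 2.14e-05) and Col27a1 by 1.18 ± 0.20 (adjusted p = 0.000157). None of these 6 groups of R6/2 values overlapped the WT values, in genes picked by their calls. How many of all genes had no overlap was not counted.
At 6 weeks the 6 fold changes were 0.80 in Col2a1, 0.64 in Col9a3, 0.30 in Col9a1, 0.23 in Col16a1, 0.16 in Col11a2 and -0.14 in Col27a1, and 0 of the 39 members were called with limma (5 at an unadjusted p below 0.05, against 0.377% of all genes called after adjustment). The R6/2 effect differed between 6 and 12 weeks in 8 members, against 4.25% of all genes (3.77% higher and 0.473% lower): these 6, all larger at 12 weeks, and Col15a1 (-1.49, adjusted p = 0.018) and Col1a1 (-1.16, adjusted p = 0.00526). The change was 2.90 ± 0.42 (SE, adjusted p = 0.000315) in Col9a1.

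Col9a2, the third chain of type IX collagen, is singled out after its values were seen, because its mean was below the filter in every fit. Without the filter on dim genes, it was at 3.92, 3.93, 4.23, 3.87 and 4.14 in WT and 6.90, 7.01, 7.23, 7.17, 7.46 and 8.58 in R6/2 at 12 weeks in the negative fraction. The groups did not overlap, and the fold change was 3.37 ± 0.22 (SE, adjusted p = 4.01e-09 over all genes). At 6 weeks it was at 4.26, 4.56, 4.59, 4.37 and 4.20 in WT and 5.93, 5.40, 6.23, 5.84 and 5.59 in R6/2, also without overlap (1.40 ± 0.23 SE, adjusted p = 0.00671). It was the 1 member called there without the filter.

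**Figure D3:**
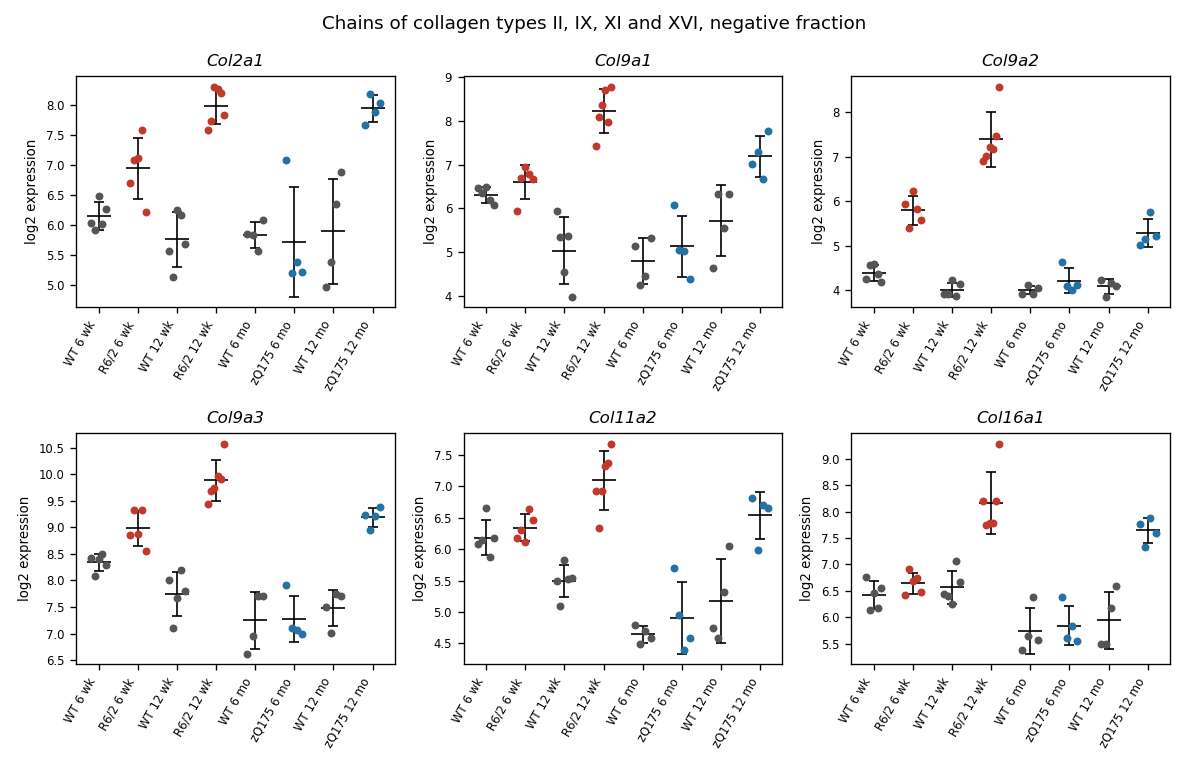
Log2 expression of 6 chains of types II, IX, XI and XVI in each pool of the negative fraction (points), with the mean and SD (bars) and y axes that do not start at 0. In each panel the R6/2 pools at 12 weeks lie above the WT pools of that age, and the zQ175 pools at 12 months are above theirs in all 6 except Col11a2, where 1 zQ175 pool (5.98) is below the highest WT pool (6.05).

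Chains of types II, IX and XVI also rose in zQ175 mice at 12 months, in the negative fraction. Of 39 members, 6 were called, 4 higher and 2 lower, against 6.93% of all genes (3.85% higher and 3.08% lower), with a median of 0.20 against 0.05. Col2a1 was at 4.96, 5.38, 6.35 and 6.88 in WT and 7.67, 8.19, 7.89 and 8.03 in zQ175 (2.05 ± 0.42 SE, adjusted p = 0.0167). Col9a3 was at 7.49, 7.01, 7.75 and 7.70 and at 9.23, 8.95, 9.22 and 9.38 (1.71 ± 0.26 SE, adjusted p = 0.00378). Col16a1 was at 5.50, 5.50, 6.18 and 6.59 and at 7.77, 7.34, 7.88 and 7.59 (1.70 ± 0.27 SE, adjusted p = 0.00465). In these 3 genes every zQ175 pool was above every WT pool. Col9a1 was at 5.72 ± 0.81 and 7.19 ± 0.46 (SD, n = 4 each, fold change 1.48 ± 0.41 SE), with the lowest zQ175 pool at 6.68 and the highest WT pool at 6.34. It is among the 4 called higher but passed the filter through the zQ175 pools at 12 months. It was bound to differ, so no test is given for it here. Without the filter, Col9a2 was at 4.09 ± 0.16 and 5.29 ± 0.32 (1.20 ± 0.17 SE, adjusted p = 0.00179) and Col11a2, also below the filter here, changed by 1.36 ± 0.31 (SE, adjusted p = 0.0317). The Col9a1 call was lost under 13 of 22 alternatives, and the count of members was 3 without WT pool 34 or WT pool 35, when the Col2a1 call was lost.
The 2 falls were in the basement membrane. Col4a5 was at 9.10, 9.29, 9.31 and 9.23 in WT and 8.45, 8.27, 8.03 and 8.49 in zQ175 (-0.92 ± 0.14 SE, adjusted p = 0.00358), without overlap, and Lamc1 was at 11.45 ± 0.26 and 10.86 ± 0.21 (-0.59 ± 0.14 SE, adjusted p = 0.0291). The Lamc1 call was lost without zQ175 pool 30, 31 or 32 or WT pool 34 or 35. Col4a1, which fell in R6/2, was at 12.14 ± 0.13 and 12.21 ± 0.37 here (0.07 ± 0.18 SE, adjusted p = 0.82), and Col1a1 at 9.51 ± 0.35 and 9.40 ± 0.57 (-0.11 ± 0.27 SE, adjusted p = 0.81).
At 6 months 0 of 39 members were called with limma (4 at an unadjusted p below 0.05), where 0% of all genes were called. The zQ175 effect differed between 6 and 12 months in 0 members (12 at an unadjusted p below 0.05), where 0.0317% of all genes were called.

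Marker means beside the zQ175 result differed from those in R6/2. The astrocyte mean was 9.10 to 10.76 in WT and 9.39 to 10.40 in zQ175, with 0 of 10 markers called. The oligodendrocyte precursor mean was 8.46 to 9.08 and 9.35 to 9.63 (1 of 4 markers called, higher), and the microglia mean 4.89 to 6.38 and 6.39 to 10.34 (2 of 6 called, higher). With the precursor mean as covariate 0 members were called. This mean did not overlap between the genotypes either, so the lost calls are not read as no effect. The fold changes were then smaller in Col9a3 (1.27), Col16a1 (0.60), Col2a1 (1.60) and Lamc1 (-0.40), while Col9a1 (1.73) and Col4a5 (-0.93) were about as large as without it or larger (adjusted p = 0.871 for Col4a5 and 1 for the other 5). With the vascular mean 14 were called, 12 higher and 2 lower. The share of all genes called was not counted in fits with a covariate, so these counts are not read as particular to the members. In R6/2 at 12 weeks the precursor mean was 8.36 to 9.21 in WT and 9.09 to 9.94 in R6/2 (2 of 4 markers higher, 1 lower). With it as covariate 22 members were called there, 6 higher and 16 lower. With the astrocyte mean as covariate Col9a3 was at 1.80 (adjusted p = 0.0512) and Col9a1 at 2.07 (adjusted p = 0.0929). Where a mean did not overlap between the genotypes, these fits cannot separate the 2, and the part of changed cell shares was not tested.

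The effects of the 2 models, which share no samples, were then set against each other in 1 fit of the negative fraction. All 4 chains called higher in zQ175 at 12 months were among the 6 called higher in R6/2 at 12 weeks (100% and 66.7% of the lists). Col9a1, among these 4, passed the filter in zQ175 through the zQ175 pools at 12 months, so its place in the overlap is no support. Of all genes tested, 3.85% were higher in zQ175 and 15.5% in R6/2. The overlap of their lists was not counted, so that of the chains is not read as particular to them. Of the lowered chains, Lamc1 was in both lists (50% of 2 and 5% of 20). The effect was called different in 17 of 40 members, against 10.7% of all genes (6.44% higher and 4.3% lower), 16 lower in R6/2 than in zQ175 and 1 higher. Col15a1 (-2.14 ± 0.36 SE, adjusted p = 0.000362), Lamb1 (-1.97 ± 0.50 SE, adjusted p = 0.0115), Col6a2 (-1.90), Col3a1 (-1.82) and Col1a1 (-1.35) were among the former, and Col9a1 (1.72 ± 0.50 SE, adjusted p = 0.0265) was the latter. The Col9a1 call was lost without WT pool 20, 35 or 37 or zQ175 pool 30 or 32. The count was 5 without zQ175 pool 32, and 10 without zQ175 pool 30 or WT pool 35. It was 3 with the vascular or the astrocyte marker mean as covariate, and Col9a1 was then at -0.03 with the latter.

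In the astrocyte fraction, R6/2 mice at 12 weeks had both raised and lowered chains. Of 31 members tested, 14 were called, 8 higher and 6 lower, against 28.7% of all genes (14.5% higher and 14.2% lower), and the median was -0.06, against 0.00. Col22a1, a chain of tissue junctions, was at 5.41, 5.60, 5.18, 5.35 and 5.15 in WT and 7.44, 7.18, 6.42, 6.24, 6.99 and 7.0 in R6/2, without overlap (1.54 ± 0.20 SE). Col22a1 and Col11a1, both among the 8 rises, passed the filter through the R6/2 pools at 12 weeks. They were bound to differ, so no test is given for them and their calls are no support. Col4a5 was at 8.62, 8.47, 8.56, 8.90 and 8.69 in WT and 9.24, 9.36, 9.23, 9.74, 9.81 and 9.22 in R6/2, also without overlap (0.78 ± 0.11 SE, adjusted p = 3.63e-05). Lama3, the alpha chain of epithelial laminin, was at 7.43, 7.72, 8.09, 8.17 and 8.10 in WT and 5.64, 6.14, 6.70, 5.82, 6.75 and 6.96 in R6/2, below WT in every pool (-1.57 ± 0.22 SE, adjusted p = 3.69e-05).
Col11a1 (0.98), Col9a1 (0.89), Col5a3 (0.75), Col1a2 (0.72), Col2a1 (0.57) and Col9a3 (0.56) were the other rises. Col11a2 (-0.83), Col5a1 (-0.73), Col20a1 (-0.55), Col16a1 (-0.39) and Col1a1 (-0.36) were the other falls. So Col11a1 and Col11a2, chains of the same type XI trimer, went in opposite directions, as did Col1a2 and Col1a1. Without the filter on dim genes Col9a2 was at 4.61 ± 0.43 in WT and 6.75 ± 0.26 in R6/2 (2.14 ± 0.19 SE, adjusted p = 1.95e-07), and at 6 weeks at 4.51 ± 0.29 and 5.36 ± 0.33 (0.85 ± 0.20 SE, adjusted p = 0.0451). With the filter 0 members were called at 6 weeks with limma, against 1.2% of all genes called, and 8 members were at an unadjusted p below 0.05. Lama3 was at 8.03 ± 0.27 and 7.18 ± 0.30 (-0.86 ± 0.23 SE, adjusted p = 0.0816).
The change of the effect between the ages was called in 0 members, against 1.15% of all genes called, and 8 members were at an unadjusted p below 0.05. In this fraction 2 of 10 astrocyte markers were lower at 12 weeks and the astrocyte mean averaged 12.98 in WT, where the lowest pool was at 12.90, and 12.82 in R6/2, with a range of 12.62 to 12.93. Of the mural markers 3 of 9, of the oligodendrocyte markers 4 of 8 and of the endothelial markers 1 of 10 were lower, and the endothelial mean was 8.51 to 9.90 in WT and 7.25 to 10.37 in R6/2. The count of members was 14 with the vascular mean as covariate and 9 with the astrocyte mean. Averaging all probe sets of a gene gave 7. The Col2a1 call was lost in 11 of the 21 fits that left out 1 pool, and the calls of Col16a1 (WT pool 16 or 20), Col1a1 (WT pool 16) and Col1a2 (WT pool 12 or 16 or R6/2 pool 19) each rested on the pools named.

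**Figure D4:**
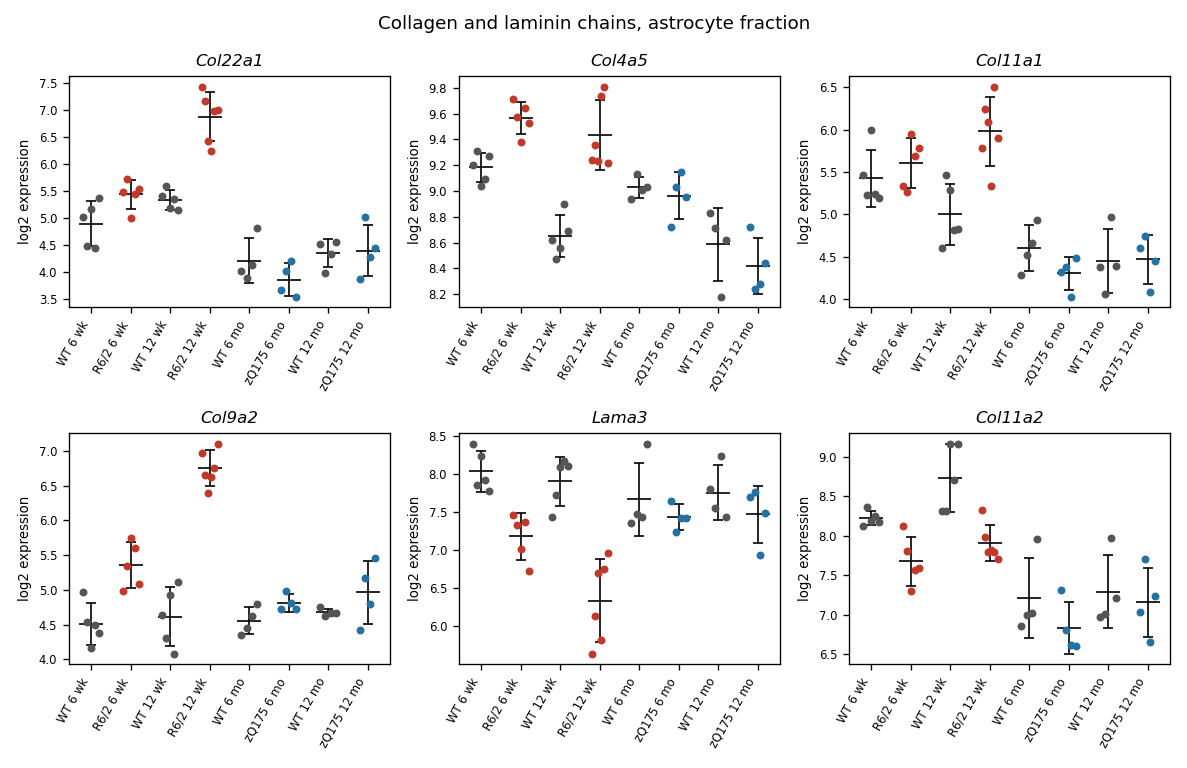
Log2 expression of 6 chains in each pool of the astrocyte fraction (points), with the mean and SD (bars) and y axes that do not start at 0. At 12 weeks Col22a1, Col4a5 and Col9a2 of all R6/2 pools are above WT and Lama3 of all R6/2 pools is below WT, while zQ175 and WT pools overlap in each panel at 12 months.

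In zQ175 astrocytes 0 of 28 members were called with limma at 6 months, against 0.38% of all genes called, and 0 at 12 months, against 5.9%. At an unadjusted p below 0.05 there were 2 members at 6 months and 4 at 12 months. Col2a1 was at 6.90 ± 0.73 in WT and 7.90 ± 0.31 in zQ175 at 12 months (1.0 ± 0.30 SE, adjusted p = 0.0658) and Col9a1 at 5.72 ± 0.29 and 6.70 ± 0.12 (0.98 ± 0.40 SE, adjusted p = 0.183), with every zQ175 pool of Col9a1 above every WT pool. Lama3 was at 7.75 ± 0.36 and 7.47 ± 0.38 (adjusted p = 0.572) and Col4a5 at 8.59 ± 0.28 and 8.42 ± 0.22 (adjusted p = 0.563). The effect differed between 6 and 12 months in 0 members, against 0.00808% of all genes called (0 members at an unadjusted p below 0.05). 1 or 2 members were called at 12 months without WT pool 23 or 36 or zQ175 pool 26.

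The R6/2 effect at 12 weeks was called different between the astrocyte and negative fractions in 18 of 35 members, against 19.6% of all genes (6.74% higher and 12.9% lower). It was lower in astrocytes for Col11a2 (-2.43 ± 0.26 SE, adjusted p = 6.76e-09), Col9a1 (-2.30), Col16a1 (-1.99), Col2a1 (-1.67), Col9a3 (-1.58) and Col27a1 (-1.36). It was higher in astrocytes for 12 chains, led by Col22a1 (1.93 ± 0.31 SE, adjusted p = 1.13e-05), Col5a3 (1.87), Col1a2 (1.82), Col4a6 (1.71) and Col5a2 (1.42). Col9a1, Col2a1 and Col9a3 rose in both fractions, by more in the negative one. Col11a2 and Col16a1 fell in astrocytes and rose in the negative fraction. Col1a2 and Col5a3 rose in astrocytes and fell in the negative fraction, and Lama3 and Col1a1 fell in both. The Col5a2 call was lost in most fits that left out 1 pool. With the astrocyte marker mean as covariate the count was 6, and Lama3 in the negative fraction was at 0.40.

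**Figure D5:**
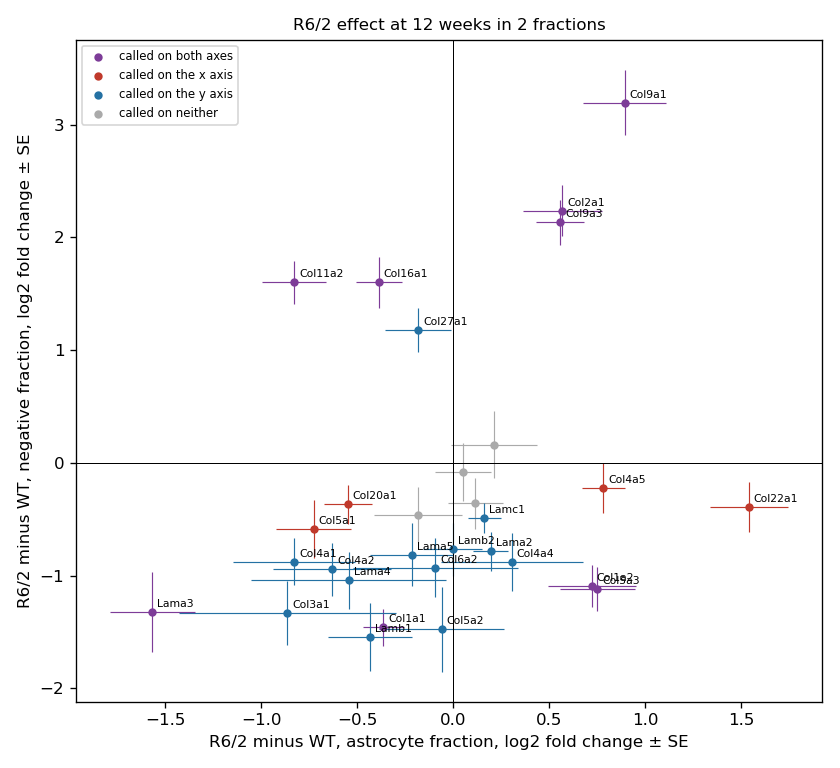
Log2 fold change ± SE of R6/2 minus WT at 12 weeks for 30 chains tested in both fractions, astrocyte (x axis) against negative fraction (y axis). Col9a1, Col2a1 and Col9a3 are at the upper right, Col11a2 and Col16a1 at the upper left, Col1a2 and Col5a3 at the lower right, and Lama3 and Col1a1 at the lower left.

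In microglia few chains passed the filter and few changed. In R6/2 mice at 12 weeks 2 of 16 members were called, against 6.08% of all genes (2.52% higher and 3.56% lower). Col9a3 was at 5.97, 6.20, 6.26, 6.4 and 5.69 in WT and 7.01, 6.90, 7.24, 6.17, 7.35 and 7.09 in R6/2 (0.86 ± 0.20 SE, adjusted p = 0.0145), and 1 R6/2 pool lay within the WT range. Col6a3 was at 8.17, 8.51, 8.52, 8.54 and 8.51 in WT and 7.59, 6.90, 7.31, 7.58, 7.70 and 8.16 in R6/2 (-0.91 ± 0.25 SE, adjusted p = 0.0354), with every R6/2 pool below WT by a margin of as little as 8.16 against 8.17. The count was 1 without R6/2 pool 11, 13, 15 or 17 or WT pool 14, 16, 18 or 20. At 6 weeks 0 of 16 were called with limma, against 0.41% of all genes called (2 members at an unadjusted p below 0.05). The effect differed between ages in 0 members, against 0.251% of all genes called (0 members at an unadjusted p below 0.05).
Of the 3 chains that were highest in WT microglia, Col6a3 was thus called and Col27a1 and Col15a1 were not. At 12 weeks Col27a1 was at 11.62 ± 0.26 in WT and 11.90 ± 0.10 in R6/2, Col15a1 at 10.13 ± 0.17 and 10.09 ± 0.11, and Col25a1 at 7.38 ± 0.41 and 7.88 ± 0.48 (adjusted p = 0.282).
In zQ175 microglia at 12 months 1 of 20 members was called, against 3.15% of all genes (2.8% higher and 0.344% lower). Col4a1 was at 5.62, 4.85, 5.63 and 5.42 in WT and 6.25, 9.71, 8.20 and 6.55 in zQ175 (2.30 ± 0.59 SE, adjusted p = 0.0487). All zQ175 pools were above WT, by very different amounts, and the call was lost in 18 of 23 alternatives. The endothelial marker mean was 6.72 in WT and 7.81 in zQ175 and the pericyte and smooth muscle mean 6.28 and 7.33, and with the vascular marker mean as covariate 0 members were called. At 6 months 0 were called with limma, against 0.0082% of all genes called (0 members at an unadjusted p below 0.05). The effect differed between ages in 0, against 0% of all genes called (3 members at an unadjusted p below 0.05).

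Genes that build, bind or cut these chains were counted in R6/2 negative fractions at 12 weeks, where 15.5% of all genes tested were higher and 10.7% lower. Of 19 collagen assembly genes 1 rose and 5 fell. The falls were led by Lox, which cross-links fibrils (-1.95 ± 0.21 SE, adjusted p = 1.01e-06), and P3h2, a prolyl hydroxylase of type IV collagen (-1.54 ± 0.16 SE, adjusted p = 7.48e-07). Of 15 basement membrane partners 1 rose and 5 fell, with Nid1, which links laminin to type IV collagen, at -0.85 and Ntn4, a laminin-binding netrin, at -0.77. Of 14 receptors 1 rose, the syndecan Sdc4 (2.17), and 9 fell, among them the integrin chain Itga10 (-1.21). Of 11 turnover genes 4 rose and 4 fell, with Timp4, an inhibitor of matrix proteases, at 2.77 ± 0.38 (SE, adjusted p = 1.89e-05) and Mmp2, a gelatinase, at 2.43 ± 0.23 (SE, adjusted p = 2.08e-07). In the same samples the astrocyte marker mean averaged 8.83 in WT and 10.81 in R6/2. The pericyte and smooth muscle mean averaged 11.42 and 10.62. The part of changed cell shares in these rises and falls was not tested.
Mmp2 was also higher in R6/2 astrocytes at 12 weeks (2.63 ± 0.27 SE, adjusted p = 8.33e-07) and in the negative fraction of zQ175 mice at 12 months (1.94 ± 0.33 SE, adjusted p = 0.00661). Lox fell in the latter as well (-1.69 ± 0.17 SE, adjusted p = 0.000113), where 3.85% of all genes were higher and 3.08% lower, and where 0 of 20 assembly genes rose and 5 fell, 0 and 1 of 15 partners, 0 and 2 of 14 receptors, and 1 and 1 of 13 turnover genes. In R6/2 astrocytes, where 14.5% of all genes were higher and 14.2% lower, 2 of 21 assembly genes rose and 5 fell, the largest falls being in Loxl1 (-1.32) and P3h2 (-1.05). There 1 of 14 partners rose and 2 fell, 0 of 14 receptors rose and 2 fell, and 3 of 9 turnover genes rose and 4 fell.

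Of the 52 members, 43 were tested in at least 1 fit and 14 in every fit. The 9 tested in none were Col10a1, Col12a1, Col17a1, Col19a1, Col24a1, Col6a4, Col6a5, Col9a2 and Lamb3. Their highest group means were 2.49 to 5.19 apart from Col9a2, at 7.39. A member that passed the filter only through a group where it is high was bound to differ, so counts over tested members are not counts over all 52.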

How the data were processed

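RNA of 111 sorted samples, each from a litter pool and 37 in each fraction, was measured on Affymetrix mouse arrays. The authors deposited log2 expression values for 45101 probe sets, and the submitters' processing notes name affy, RMA and limma without versions. The sources used here give neither the order of the steps, nor the genome build, nor whether all arrays were normalised together. Values ran from 1.5 to 14.26 and array medians from 6.261 to 6.651. The number of arrays limits the precision. Of the probe sets, 34958 had 1 gene symbol, 932 several and 9211 none, and those with 1 symbol were used.

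Each gene was represented by its probe set of highest mean. In R 4.3.3 with limma 3.58.1, each fraction and model was fitted with lmFit and eBayes after leaving out genes with a mean under the 40th percentile, with Benjamini-Hochberg adjustment over all genes tested and a threshold of 0.05. WT fractions were fitted over 18 samples each. Percentages of all genes called are after adjustment. Neither counts at an unadjusted p below 0.05 nor the overlap of pools between groups were taken over all genes. The fit was tested on simulated data. Where 10 or fewer members were called in a direction all were named, and otherwise the 5 largest; a core list of 18 basement membrane, fibrillar and type VI, XV and XVIII chains could be named anywhere, and of the pathway genes the 2 largest called per role. Alternatives changed the filter (60th percentile or none), the choice of probe set, the centring, the samples, the covariates and the block.

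The members, gene lists and tests were chosen with earlier results of these data known. Chosen after the values were seen were Col9a2, the genes with values per pool, the comparisons between fractions and between models, the 9 correlations, the 3 motifs, and the astrocyte and precursor covariates. List genes without a probe set of 1 symbol (for example Ly6c1 and Loxl2) were not analysed here.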

Additional observations from a re-analysis of the deposited data

Results flagged for a closer look

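In 14 of 216 sets of 1 gene in 1 group a single pool stood far from the others, and chance gives about 1 in 20 such sets. In the negative fraction these were R6/2 pool 7 at 6 weeks for Col4a1 (10.68) and Col4a2 (10.01), R6/2 pool 6 at 6 weeks for Col9a1 (5.95), R6/2 pool 21 at 12 weeks for Col9a2 (8.58) and Col16a1 (9.29), and WT pool 12 at 12 weeks for Lamb1 (9.82). They were also WT pool 35 at 12 months for Lamc3 (8.39), zQ175 pool 27 at 6 months for Col3a1 (9.26), and zQ175 pool 26 at 6 months for Col2a1 (7.08) and Col9a3 (7.91). In the astrocyte fraction WT pool 25 at 6 months stood apart for Lama3 (8.39) and Col11a2 (7.96). In microglia zQ175 pool 28 at 6 months did for Col27a1 (9.68) and WT pool 12 at 12 weeks for Col6a3 (8.17).

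The R6/2 effect in the negative fraction differed between 6 and 12 weeks for 8 chains. The change was 2.90 in Col9a1, 1.49 in Col9a3, 1.44 in Col2a1 and Col11a2, 1.37 in Col16a1, 1.32 in Col27a1, -1.16 in Col1a1 and -1.49 in Col15a1.

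The 2 comparisons that follow were added after the data were seen. The R6/2 effect at 12 weeks was lower in the astrocyte than in the negative fraction for Col11a2 (-2.43), Col9a1 (-2.30), Col16a1 (-1.99), Col2a1 (-1.67), Col9a3 (-1.58) and Col27a1 (-1.36). It was higher for Lamc1 (0.66), Lama2 (0.98), Col4a5 (1.01), Col15a1 (1.09), Col1a1 (1.1), Lama1 (1.11), Lamb1 (1.11), Col5a2 (1.42), Col4a6 (1.71), Col1a2 (1.82), Col5a3 (1.87) and Col22a1 (1.93). Among negative fractions the R6/2 effect at 12 weeks was lower than the zQ175 effect at 12 months for Col15a1 (-2.14), Lamb1 (-1.97), Col6a2 (-1.90), Col3a1 (-1.82), Col14a1 (-1.81), Col6a1 (-1.81), Col26a1 (-1.75), Col5a3 (-1.72) and Col5a2 (-1.69). It was also lower for Col1a1 (-1.35), Lama4 (-1.24), Lama2 (-1.13), Col4a2 (-1.06), Col1a2 (-1.02), Col4a1 (-0.95) and Col20a1 (-0.91), and higher for Col9a1 (1.72).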

How the results depend on the processing

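Of 4248 values of 138 named gene results under alternatives, 3715 kept direction and call, 511 lost the call, 6 gained one and 16 changed sign; the cause was not tested where none is named. Counts below are members called. The share of all genes called was not counted under these alternatives, so a changed count is not read as particular to the members. With the 60th percentile filter, which tests fewer genes, WT fractions gave 12 in each of the 3 comparisons, astrocytes 6 (R6/2 at 12 weeks) and 4 (WT 12 against 6 weeks), microglia 1, 4 and 0 (R6/2 at 12 weeks, WT weeks, zQ175 at 12 months), the negative fraction 4, 15 and 3 (change of the R6/2 effect, WT weeks, zQ175 at 12 months), the comparison of fractions 9 and that of models 11. With no filter WT gave 43 (astrocyte minus negative) and 48 (microglia minus negative), astrocytes 1 for R6/2 at 6 weeks and 1 for its change, microglia 1 and 0 (R6/2 at 12 weeks, zQ175 at 12 months), and the negative fraction 1 at 6 weeks. The mean of probe sets gave 7 for R6/2 astrocytes at 12 weeks, 4 and 0 in microglia (WT weeks, zQ175 at 12 months) and 11 between models. Median centring gave 1 for WT astrocytes between months and 0 for zQ175 microglia. All 8 groups in 1 fit gave 1 each for astrocytes (R6/2 at 6 weeks, zQ175 at 12 months, WT months), 2 for zQ175 microglia, and 3 and 1 in the negative fraction (change of the zQ175 effect, WT months).

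Where a covariate did not overlap between the groups compared, a lost call is not read as no effect. The vascular covariate gave 1 and 5 in astrocytes (R6/2 at 6 weeks, WT weeks), 0 for zQ175 microglia, 9, 2 and 14 in the negative fraction (R6/2 at 12 weeks, WT weeks, zQ175 at 12 months) and 3 between models. The astrocyte covariate, added later, gave 1 and 9 in astrocytes (R6/2 at 6 and 12 weeks), 3 and 2 in microglia (WT weeks, zQ175 at 12 months), 2, 0 and 6 in the negative fraction (R6/2 at 12 weeks, its change, WT weeks), 6 between fractions and 3 between models. The precursor covariate, also added, gave 1 for WT astrocytes between months, 4, 0 and 1 in microglia (WT weeks, zQ175 at 12 months, WT months), and 1, 2 and 0 in the negative fraction (R6/2 at 6 weeks, change, zQ175 at 12 months). Without WT pools 12 and 20, added because they showed no Y-linked expression, the counts were 4 for WT astrocytes over weeks, 1 and 4 in microglia (R6/2 at 12 weeks, WT weeks), 1 for the negative fraction at 6 weeks and 11 between models.

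Signs changed in R6/2 at 12 weeks, negative fraction, for Col18a1 (-0.12 with precursors, and -0.04 to 0.33 with 1 pool left out, below 0 at -0.02 without WT pool 12 and at -0.00 and -0.04 without R6/2 pools 19 and 21), for Col4a2 (0.09), Lama5 (0.34) and Lamb2 (0.23) with the vascular covariate, and for Col5a1 (0.12), Lama3 (0.40), Lama5 (0.20) and Lamb2 (0.09) with the astrocyte covariate. In WT over weeks the vascular covariate gave -0.08 in Col3a1, -0.20 in Col4a1, -0.15 in Col4a2 and -0.01 in Lama3, and between models the astrocyte covariate gave -0.03 in Col9a1. Leaving out 1 pool gave, in astrocytes, 10 to 14 (R6/2 at 12 weeks), 0 to 1 (change), 3 to 8 (WT weeks) and 0 to 2 (zQ175 at 12 months); in microglia 1 to 3, 4 to 7, 0 to 2 and 0 to 1 (R6/2 at 12 weeks, WT weeks, zQ175 at 12 months, WT months); in the negative fraction 24 to 29, 8 to 12, 23 to 28, 3 to 6 and 0 to 2 (R6/2 at 12 weeks, change, WT weeks, zQ175 at 12 months and its change); 15 to 19 between fractions and 5 to 22 between models; and 0 elsewhere.

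Pool numbers are shared by the 3 fractions, and the labels do not say whether same-numbered samples come from 1 pool. The deviations of same-numbered WT samples from their group means had median correlations of 0.131 (astrocyte with microglia), 0.154 (astrocyte with negative) and 0.11 (microglia with negative). They were over 0.1 in 14, 13 and 9 of 18 WT pools, so shared pools cannot be set aside. The main fits took the fractions as independent. With the replicate block the WT counts were 27, 27 and 29, and the comparison of fractions gave 19.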
